A study of Mus musculus with 4 samples.

Results

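Unfolded protein and integrated stress genes are the genes by which a cell answers misfolded protein in the endoplasmic reticulum (ER), amino acid shortage and other insults that slow translation. The set described here holds 37 human genes of the 36601 in the deposited feature lists. They were listed by symbol and not by a cut on any measured value, although earlier results of these data were known. All 37 were found in both lists. They comprise 7 stress sensors and transcription factors, 6 targets and regulators of the integrated stress response, 5 enzymes of amino acid and folate metabolism, 14 ER chaperones and folding enzymes and 5 genes of ER-associated degradation.

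The data are droplet 3' single-cell RNA-seq of human CD45+ cells sorted from MDA-MB-231 tumors. MDA-MB-231 is a human breast cancer line, and here it grew in the mammary fat pad of MISTRG mice. These mice lack a lymphoid system of their own and carry human cytokine genes. They were irradiated as newborns and given human CD34+ progenitors from fetal liver. The leukocytes sequenced here are thus human while the host is mouse. The paper also stained and sorted mouse CD45+ cells from these tumors, which are not described here. The 7 untreated mice and the 7 mice given maraviroc in their drinking water (300 mg/l for 10 days from day 21 after tumor injection) shared this genotype, graft and tumor line, and all tumors were taken on day 31. The progenitor donors and the exact age of each mouse are not given in the sources used here. GEO lists the organism as mouse, whereas the reads were assigned to human genes. The sample labels name only 2 reactions and a CD45+ cell type, and each mouse and its treatment were read from hashtag antibody names in the feature lists.

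In the unfolded protein response, the ER membrane sensors IRE1 (gene ERN1), PERK (EIF2AK3) and ATF6 detect unfolded protein. IRE1 splices the mRNA of the transcription factor XBP1, ATF6 is cut free to enter the nucleus, and both raise ER chaperones and the machinery that exports misfolded protein for destruction. PERK phosphorylates eIF2α, as do kinases for amino acid shortage, haem shortage and viral RNA, and this integrated stress response favours translation of ATF4, which switches on DDIT3 (CHOP), TRIB3, amino acid enzymes and transporters. Secretory cells such as plasma cells and plasmacytoid dendritic cells are known to run the IRE1 and XBP1 arm without outside stress. Counts of 3' ends do not show XBP1 splicing, cleavage of ATF6 or phosphorylation, so only mRNA abundance is described.

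The reactions differed in depth, with a median of 2764 UMIs over the 29120 barcodes of reaction 1 and 10204.5 over the 13582 of reaction 2. Hashtag singlets that passed the gene and mitochondrial limits numbered 19817, with 5996882 to 14782548 UMIs per mouse. Among them, 31 barcode sequences occurred in both reactions. Cells were classed by UMIs of marker genes, none of which is a stress gene of the set, and a class was used in a mouse where it had at least 10 cells. Macrophages, T cells, natural killer (NK) cells, monocytes and conventional dendritic cells were available in all 14 mice. Plasmacytoid dendritic cells were available in 5 mice, all of reaction 2, B cells in 7 mice, mast cells in 8 mice and cells with tumor markers in 5 mice. The macrophages, 6482 in all, were divided into 155 GLUT1+ cells (SLC2A1), 414 MT1G+ cells, 677 CXCL10+ cells and 5053 others, while 183 that passed several of these gates were left out of the states, and 2042 macrophages with HMOX1 were also summed by themselves. These gates asked for at least 2 UMIs of SLC2A1, 3 of MT1G or MT1H, 5 of CXCL10 or CXCL9 and 3 of HMOX1. The other macrophages could thus hold cells with fewer UMIs of the state markers. All 6 macrophage markers were present in the macrophage class, with summed levels of 5120.3 to 7146 counts on a per-million scale across mice. The gate itself asked for at least 6 UMIs over at least 3 of these markers, so these levels do not test what the cells are. Levels are given as CPM, the UMIs of a gene on a per-million scale of all UMIs of its class in a mouse. They are thus shares of that class's RNA. Cells of different classes also differed in depth. In reaction 1 the median was 5515.5 UMIs in CXCL10+, 5294 in MT1G+ and 3055 in other macrophages. It was 3397 in all macrophages, 5185 in monocytes, 9890 in conventional dendritic cells, 5046 in T cells and 2996.5 in NK cells.

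The 37 genes were unevenly covered. In macrophages, the UMIs summed over 14 mice ranged from 12 for ASNS (asparagine synthetase) and 19 for CHAC1 (a glutathione-degrading enzyme) to 29097 for HSP90B1 (the ER chaperone GRP94). PHGDH and PSAT1, which make serine, had 56 and 85 UMIs. For ASNS, CHAC1 and PHGDH no comparison had enough counts for a test, and PSAT1 was tested only where T cells entered. Little can be said at this depth of ASNS, CHAC1 and PHGDH in any class, or of PSAT1 outside T cells. In macrophages, 0 of the 33 genes tested there had levels that did not overlap between the reactions, where 6.48% of all 11908 genes tested did.

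The class with the highest median level differed from gene to gene. Cells with tumor markers were highest for 9 genes, plasmacytoid dendritic cells for 7, CXCL10+ macrophages for 5 and mast cells for 4. GLUT1+ macrophages were highest for 3, which include CHAC1 through a tie at a median of 0. Among the 9, PSAT1 and TRIB3 had medians of only 13.0 and 16.0 CPM, in a class of few cells. Shares over all genes are not given for these counts, so they are not read as a trait of the set. Only for XBP1, ERN1 and HERPUD1, all highest in plasmacytoid dendritic cells, did the range of the highest class stay clear of that of the next class. These are 3 of the 34 genes of the set that entered any class comparison, beside 7.42% of all 12656 such genes. For the other 34 genes, the highest class overlapped the next in the order.

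**Figure D1:**
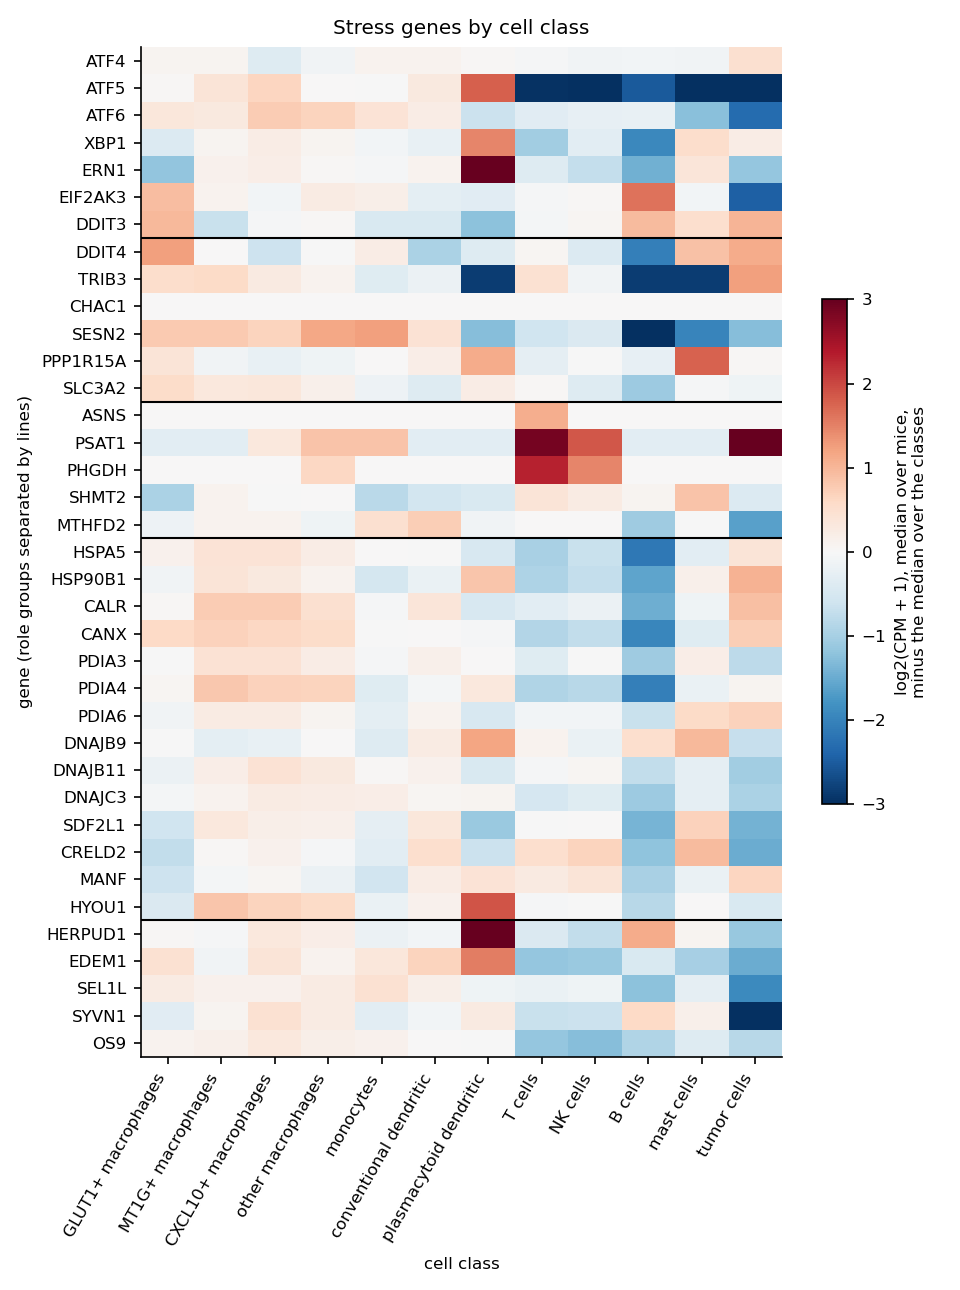
Median level of the 37 stress genes (rows, grouped by role) in each cell class (columns). Color gives log2(CPM + 1) minus the gene's own median over the classes. Plasmacytoid dendritic cells stand out for ERN1, HERPUD1 and XBP1, with medians of 652, 724 and 260 CPM. T cells and NK cells are low for ATF5 and most ER chaperones. B cells have the lowest median of all classes for most ER chaperones, and mast cells for ATF5.

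Summed by role, the groups followed different classes. The 5 degradation genes together reached a median of 1167 CPM in plasmacytoid dendritic cells, 397 in macrophages and 183 in NK cells. HERPUD1 and EDEM1 made up most of the plasmacytoid sum, with medians of 724 and 242. SEL1L, SYVN1 and OS9 instead had their highest medians in monocytes, B cells and CXCL10+ macrophages. The 7 sensors and transcription factors reached 1609 in plasmacytoid dendritic cells, 717 in macrophages and 272 in cells with tumor markers. The 14 chaperones had their highest median sum in cells with tumor markers, at 3340, followed by MT1G+ macrophages at 3084, whereas T cells stood at 1588 and B cells at 901. In cells with tumor markers HSP90B1 and CALR were the largest parts, with medians of 952 and 674. DNAJB9, DNAJB11, SDF2L1 and CRELD2 had their lowest medians of all classes in those cells. The 6 targets and regulators of the integrated stress response peaked in mast cells at 923 and in GLUT1+ macrophages at 688, against 421 in all macrophages. In mast cells this sum was carried by PPP1R15A (GADD34, which restores translation by dephosphorylating eIF2α), at 291 to 800 CPM with a median of 564 over 8 mice. The 9 dissociation and immediate early genes had a median sum of 4451 in mast cells against 3059 in macrophages, and their part was not tested. B cells had the highest median of EIF2AK3, at 286, but with a range of 64.6 to 440 over 7 mice that overlapped other classes. Mast cells and B cells were not tested, and the mast cells were shallow, with a median of 2003 UMIs per cell.

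Plasmacytoid dendritic cells are specialised interferon producers with a large secretory apparatus, and they stood apart from every other class for ERN1, HERPUD1 and XBP1. For XBP1 the gap was narrow, with 199 CPM in the lowest plasmacytoid mouse and 197 in the highest mast cell mouse. ERN1 stood at 528, 800, 763, 592 and 652 CPM in untreated mice 1 and 2 and maraviroc mice 1, 2 and 4 of reaction 2, against 49.8, 40.0, 116, 93.6 and 72.8 in the conventional dendritic cells of the same mice. HERPUD1, which recruits misfolded protein to the degradation complex, stood at 860, 691, 724, 905 and 680 against 97.6, 43.3, 102, 78.1 and 60.7. XBP1 stood at 260, 199, 294, 201 and 307 against 66.1, 83.2, 75.7, 74.7 and 71.3. In all 5 mice each of these genes was higher in plasmacytoid cells, with no overlap between the cell types, as were 18.8% of all genes tested.

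**Figure D2:**
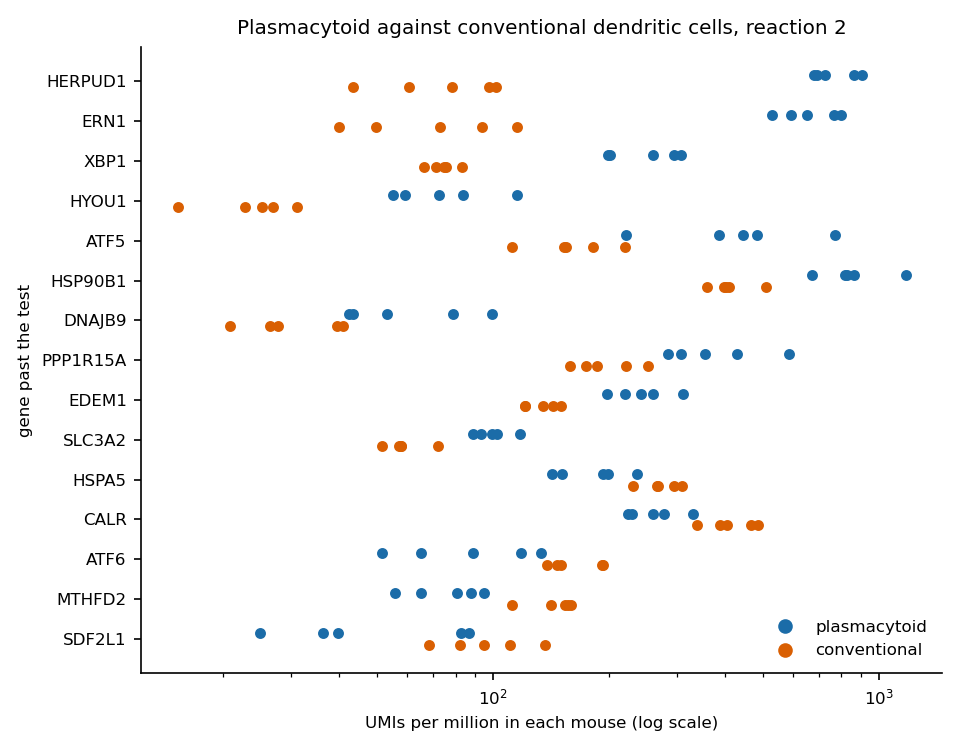
Levels in CPM (log axis) of the 15 stress genes past the test, with 1 point per mouse for plasmacytoid (blue) and conventional (orange) dendritic cells of 5 mice. ERN1, HERPUD1 and XBP1 are higher in plasmacytoid cells in 5 of 5 mice.

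With the mouse as a block, 28 of the 37 genes could be tested between plasmacytoid and conventional dendritic cells, and 10 were higher and 5 lower at an adjusted p under 0.05 (edgeR quasi-likelihood test, Benjamini-Hochberg over all genes). Of all 6595 genes tested, 24.6% were higher and 26.8% lower, so the number called is not unusual for this pair of cell types. The log2 difference was 3.36 ± 0.19 (SE) for HERPUD1 (edgeR adjusted p = 2.4e-10), 3.20 ± 0.23 for ERN1 (edgeR adjusted p = 3.5e-09) and 1.73 ± 0.19 for XBP1 (edgeR adjusted p = 6.0e-07). The chaperone HYOU1 was higher by 1.64 ± 0.25, the transcription factor ATF5 by 1.45 ± 0.24, HSP90B1 by 1.04 ± 0.15, the cochaperone DNAJB9 by 0.96 ± 0.27 and PPP1R15A by 0.95 ± 0.21 on the log2 scale. EDEM1, which extracts misfolded glycoproteins for degradation, was higher by 0.87 ± 0.17. ER chaperones did not move together, since 3 of 14 were higher and 3 lower. Among the lower were SDF2L1, with a log2 difference of -1.03 ± 0.28, the lectin CALR at -0.68 ± 0.17 and HSPA5 (BiP, the main ER chaperone) at -0.58 ± 0.18. ATF6 was also lower, at -0.87 ± 0.21, as was the mitochondrial folate enzyme MTHFD2, at -0.91 ± 0.21. ATF4 was not distinguishable between the cell types, at -0.14 ± 0.23, and DDIT3 was too sparse for a test, with medians of 5.92 and 6.10 CPM. HSPA5 lost its call without maraviroc mouse 1 (edgeR adjusted p = 0.074) and SDF2L1 without untreated mouse 2 (edgeR adjusted p = 0.051).

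Further genes of the secretory pathway, listed beside the set, were higher in 15 and lower in 2 of 34 tested. They were led by DERL3, part of the retrotranslocation channel, at 6.83 ± 0.38 on the log2 scale. The disulphide isomerase TXNDC5 at 2.41 ± 0.27 and the signal peptidase subunit SPCS1 at 2.03 ± 0.16 came next. DERL3 did not pass the low-count filter between conventional dendritic cells and macrophages, so its call is tied to its level in plasmacytoid cells. Of 23 further genes of the integrated stress response tested, 3 were higher and 6 lower, with CEBPB at -4.78 ± 0.34, the amino acid transporter SLC7A5 at 4.60 ± 0.19 and CEBPG at -1.92 ± 0.40. The plasmacytoid class held 10 to 26 cells per mouse, and its macrophage markers summed to 47.3 to 429 CPM. Of 9 dissociation and immediate early genes, 4 were higher and 1 lower in plasmacytoid cells, and of 7 hypoxia genes tested 2 were higher and 5 lower, and their part in these differences was not tested.

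GLUT1+ macrophages are those with at least 2 UMIs of SLC2A1, the glucose transporter that hypoxia raises. DDIT4 (REDD1), an inhibitor of the growth kinase mTORC1 induced by stress and hypoxia, stood at 194 to 513 CPM with a median of 263 in GLUT1+ macrophages of 8 mice. The other macrophages of these mice stood at 95.6 to 132 with a median of 119. The ranges did not overlap, which held in this direction for 1.15% of all genes tested. DDIT3 had 12.1 to 74.2 with a median of 31.02, against 10.3 to 19.997 with a median of 17.7, and was higher in 6 of 8 mice.

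**Figure D3:**
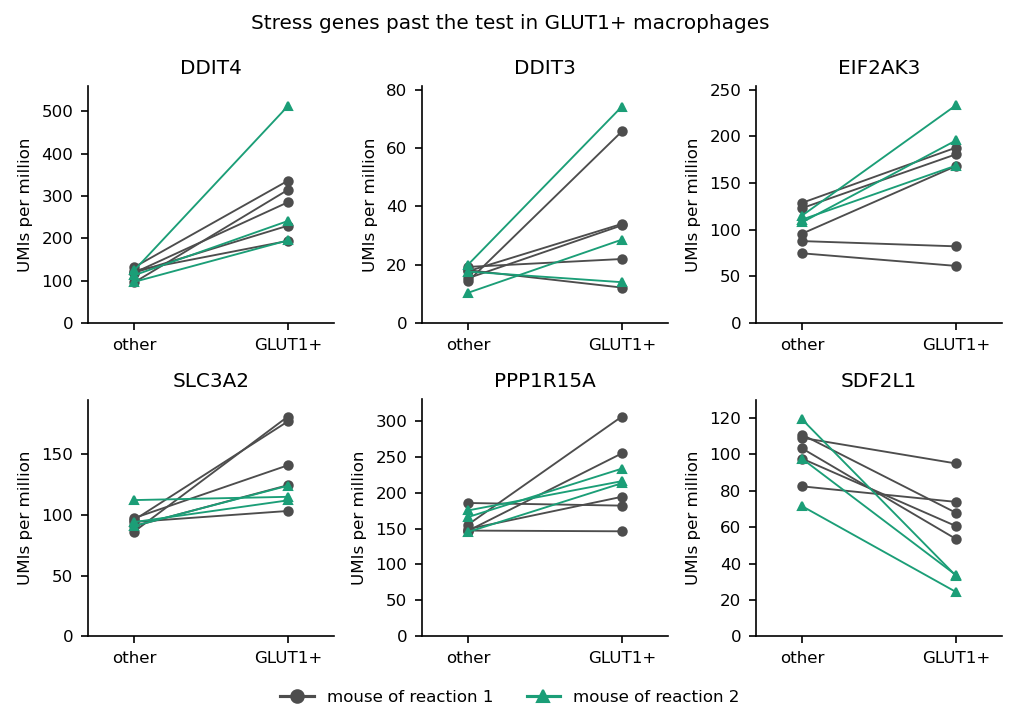
Levels in CPM of the 6 stress genes past the test in GLUT1+ and other macrophages of 8 mice, with a line joining both states of a mouse and circles and triangles for reactions 1 and 2. DDIT4 is higher in GLUT1+ cells in 8 of 8 mice without overlap, and SDF2L1 is lower in all 8.

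Of 32 genes of the set that could be tested here, 5 were higher and 1 lower in GLUT1+ macrophages, whereas 6.05% of all 9468 genes were higher and 2.52% lower. DDIT4 differed by 1.40 ± 0.15 on the log2 scale (edgeR adjusted p = 1.0e-06) and DDIT3 by 1.12 ± 0.33 (edgeR adjusted p = 0.035). EIF2AK3 differed by 0.71 ± 0.16 (edgeR adjusted p = 0.0071), PPP1R15A by 0.57 ± 0.14 (edgeR adjusted p = 0.011) and SLC3A2, the heavy chain shared by several amino acid transporters, by 0.61 ± 0.16 (edgeR adjusted p = 0.017). The higher genes thus included 3 of the 4 targets and regulators of the integrated stress response that were tested. No chaperone was called higher, and SDF2L1, a partner of the HSPA5 machinery, was lower, at -0.79 ± 0.21 (edgeR adjusted p = 0.019), with 24.4 to 95.002 CPM against 71.5 to 119. ATF4 itself was at 0.42 ± 0.19 (edgeR adjusted p = 0.21), XBP1 at -0.21 ± 0.18 and HSPA5 at -0.00 ± 0.14, and none of these 3 passed the test. The 5 genes of ER-associated degradation were not called either.

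Beyond the set, 6 of 27 further integrated stress genes were higher in GLUT1+ macrophages and none lower. The largest were the stress regulator NUPR1 at 2.94 ± 0.51, the amino acid transporter SLC38A2 at 0.88 ± 0.14 and the glycyl-tRNA synthetase GARS1 at 0.87 ± 0.18 on the log2 scale. Only 1 of 36 further unfolded protein genes passed, the ER oxidase ERO1A at 1.81 ± 0.17. All 9 hypoxia genes that were tested were higher, with a median log2 difference of 2.02 where the median of all genes was -0.05, and 4 dissociation genes, led by the heat shock gene DNAJB1 at 1.52 ± 0.18, were higher while 3 were lower. Their part in the stress gene differences was not tested. GLUT1+ cells were deeper, with a median of 10711 against 3055 UMIs in reaction 1, but 11644 against 12316 in reaction 2, and the same 6 genes were called among cells above 5000 UMIs. With 1 more UMI required at each gate only 2 mice remained and 0 of the genes were called. DDIT4 was called within each reaction, at 1.31 and 1.52, while DDIT3 lost its call without any of 5 mice (edgeR adjusted p = 0.057 to 0.13), SLC3A2 without untreated mouse 3 or 4 of reaction 1 and SDF2L1 without untreated mouse 2 or maraviroc mouse 4 of reaction 2.

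CXCL10+ macrophages carry at least 5 UMIs of the interferon-induced chemokines CXCL10 or CXCL9. ATF5, a transcription factor of the ATF4 family that also guards mitochondrial protein folding, stood at 129 to 305 CPM with a median of 200 in these cells, against 107 to 210 with a median of 129 in other macrophages. It was higher in 14 of 14 mice, by 0.66 ± 0.07 on the log2 scale (edgeR adjusted p = 3.3e-07), and was called within each reaction, at 0.77 and 0.56. Among the 32 genes tested, 6 were higher and 3 lower, whereas 8.56% of all 8536 genes were higher and 7.03% lower.

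The other genes called higher were ER chaperones, 5 of 14. They were the growth factor-like MANF at 0.28 ± 0.09, CALR at 0.28 ± 0.06, the disulphide isomerases PDIA6 at 0.22 ± 0.07 and PDIA3 at 0.22 ± 0.06, and HSP90B1 at 0.19 ± 0.06 on the log2 scale. CALR and PDIA3 also load peptides onto MHC class I. The lower genes were DDIT4 at -0.51 ± 0.12, SESN2, an mTORC1 inhibitor, at -0.45 ± 0.12, and EIF2AK3 at -0.31 ± 0.11. HSPA5 at 0.17 ± 0.08, XBP1 at 0.10 ± 0.07, ATF4 at -0.10 ± 0.10 and DDIT3 at -0.05 ± 0.17 did not pass the test.

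Of the further integrated stress genes, 3 of 25 were higher and 1 lower, the largest being the interferon-induced WARS1 at 1.32 ± 0.17, EIF2AK2 (PKR, the eIF2α kinase for viral RNA) at 0.63 ± 0.09 and EIF2S1, which encodes eIF2α, at 0.27 ± 0.08. Further unfolded protein genes were higher in 3 and lower in 2 of 36, with ERO1A at -0.52 ± 0.09, EDEM3 at -0.32 ± 0.10 and SELENOS at 0.29 ± 0.08. In these cells 7 of 9 hypoxia genes were lower, as were 3 of 9 dissociation and immediate early genes, EGR1 at -0.50 ± 0.13, FOSB at -0.41 ± 0.10 and FOS at -0.18 ± 0.06, and their part in the stress gene differences was not tested. Within a single reaction 3 genes of the set were called in each. Leaving out 1 mouse removed the call of EIF2AK3 for 11 mice, of PDIA6 for 8, of MANF for 7 and of HSP90B1 for maraviroc mouse 2 of reaction 2, with edgeR adjusted p of 0.0505 to 0.107 for these 4 genes.

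MT1G+ macrophages, with at least 3 UMIs of metallothioneins that bind zinc and copper, were compared with other macrophages in the same way. ATF5 was at 46.3 to 285 CPM with a median of 168 in 13 mice, against 107 to 210 with a median of 131. ATF5 was higher by 0.41 ± 0.12 (edgeR adjusted p = 0.023), CALR by 0.26 ± 0.09 (edgeR adjusted p = 0.049), and ATF6 was lower, at -0.38 ± 0.12 (edgeR adjusted p = 0.040) on the log2 scale. These 2 higher and 1 lower of 32 genes stand beside 5.13% and 5.46% of all 9351 genes. ATF4 was at 0.24 ± 0.13, HSPA5 at 0.19 ± 0.10, XBP1 at -0.08 ± 0.11 and DDIT3 at -0.29 ± 0.27, and none passed. Of the further genes, SLC7A11, the cystine importer, was at 2.24 ± 0.34 and EIF4EBP1 at 0.36 ± 0.11, the 2 of 27 integrated stress genes called. Of 36 unfolded protein genes 4 were higher and 1 lower, with ERO1B at -0.80 ± 0.17, SSR3 at 0.35 ± 0.09 and P4HB at 0.29 ± 0.08. Of 9 hypoxia genes LDHA and PGK1 were higher, at 0.38 ± 0.08 and 0.25 ± 0.08, and of 9 dissociation genes EGR1 was lower, at -0.74 ± 0.19, and their part was not tested. The 3 calls in the set were not stable, since 0 of 32 genes were called in either reaction alone and ATF5, ATF6 and CALR lost their calls without any of 3, 9 and 9 mice (edgeR adjusted p = 0.050 to 0.13).

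Monocytes, the circulating precursors of tumor macrophages, had less chaperone mRNA than macrophages of the same mice. PDIA4 stood at 35.3 to 66.6 CPM with a median of 51.9 in monocytes, against 86.9 to 137 with a median of 107. HSP90B1 stood at 234 to 409 with a median of 320, against 448 to 627 with a median of 522. CANX, the membrane lectin chaperone, stood at 168 to 263 with a median of 209, against 288 to 354 with a median of 316. These 3 genes and CALR were lower in 14 of 14 mice, with no overlap, as were 6.68% of all genes tested.

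Of 33 genes tested, 6 were higher and 17 lower in monocytes, where 31.6% of all 10726 genes were higher and 33.1% lower. Lower genes included 11 of 14 chaperones, led by PDIA4 at -0.98 ± 0.08, HSP90B1 at -0.68 ± 0.07, CALR at -0.62 ± 0.06 and HYOU1 at -0.59 ± 0.12 on the log2 scale. The serine-folate enzyme SHMT2 at -0.66 ± 0.12, the pseudokinase TRIB3 at -0.63 ± 0.18 and the ubiquitin ligase SYVN1 at -0.55 ± 0.15 were lower as well, and HSPA5 was marginal at -0.18 ± 0.08 (edgeR adjusted p = 0.047). Against this direction, MTHFD2 was higher by 0.53 ± 0.06 in 13 of 14 mice and ATF4 by 0.31 ± 0.05 in 13 of 14 mice. XBP1 at -0.06 ± 0.06 and DDIT3 at -0.14 ± 0.15 did not pass. Of the further genes, 8 of 27 integrated stress genes were higher and 7 lower, with NUPR1 at -4.19 ± 0.23, SLC7A11 at 2.59 ± 0.24 and WARS1 at 2.27 ± 0.09, and 9 of 37 unfolded protein genes were higher and 15 lower, with ERO1B at -1.49 ± 0.13, UBE2J1 at 0.91 ± 0.06 and CREB3L2 at -0.84 ± 0.07. Of 9 hypoxia genes 5 were higher and 2 lower in monocytes, led by HILPDA at 1.25 ± 0.17 and VEGFA at 0.64 ± 0.07. Of 9 dissociation and immediate early genes 3 were higher and 3 lower, led by EGR1 at -1.03 ± 0.09 and JUN at -0.66 ± 0.07, and the part of either list in the stress gene differences was not tested. HSPA5 lost its call without any of 4 mice, EDEM1 without any of 4 and PPP1R15A without untreated mouse 4 of reaction 1 (edgeR adjusted p = 0.054 to 0.077), and reaction 1 alone gave 13 calls in place of 23.

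Conventional dendritic cells were likewise compared with macrophages, as a single class whose subsets were not summed separately. MTHFD2 stood at 106 to 169 CPM with a median of 146 in them, against 70.4 to 119 with a median of 83.2, and was higher in 14 of 14 mice. DDIT4 stood at 30.1 to 146 with a median of 57.2, against 86.3 to 138 with a median of 114, and was lower in 13 of 14 mice. Of 33 genes tested, 8 were higher and 11 lower, where 26.5% of all 9627 genes were higher and 28% lower.

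**Figure D4:**
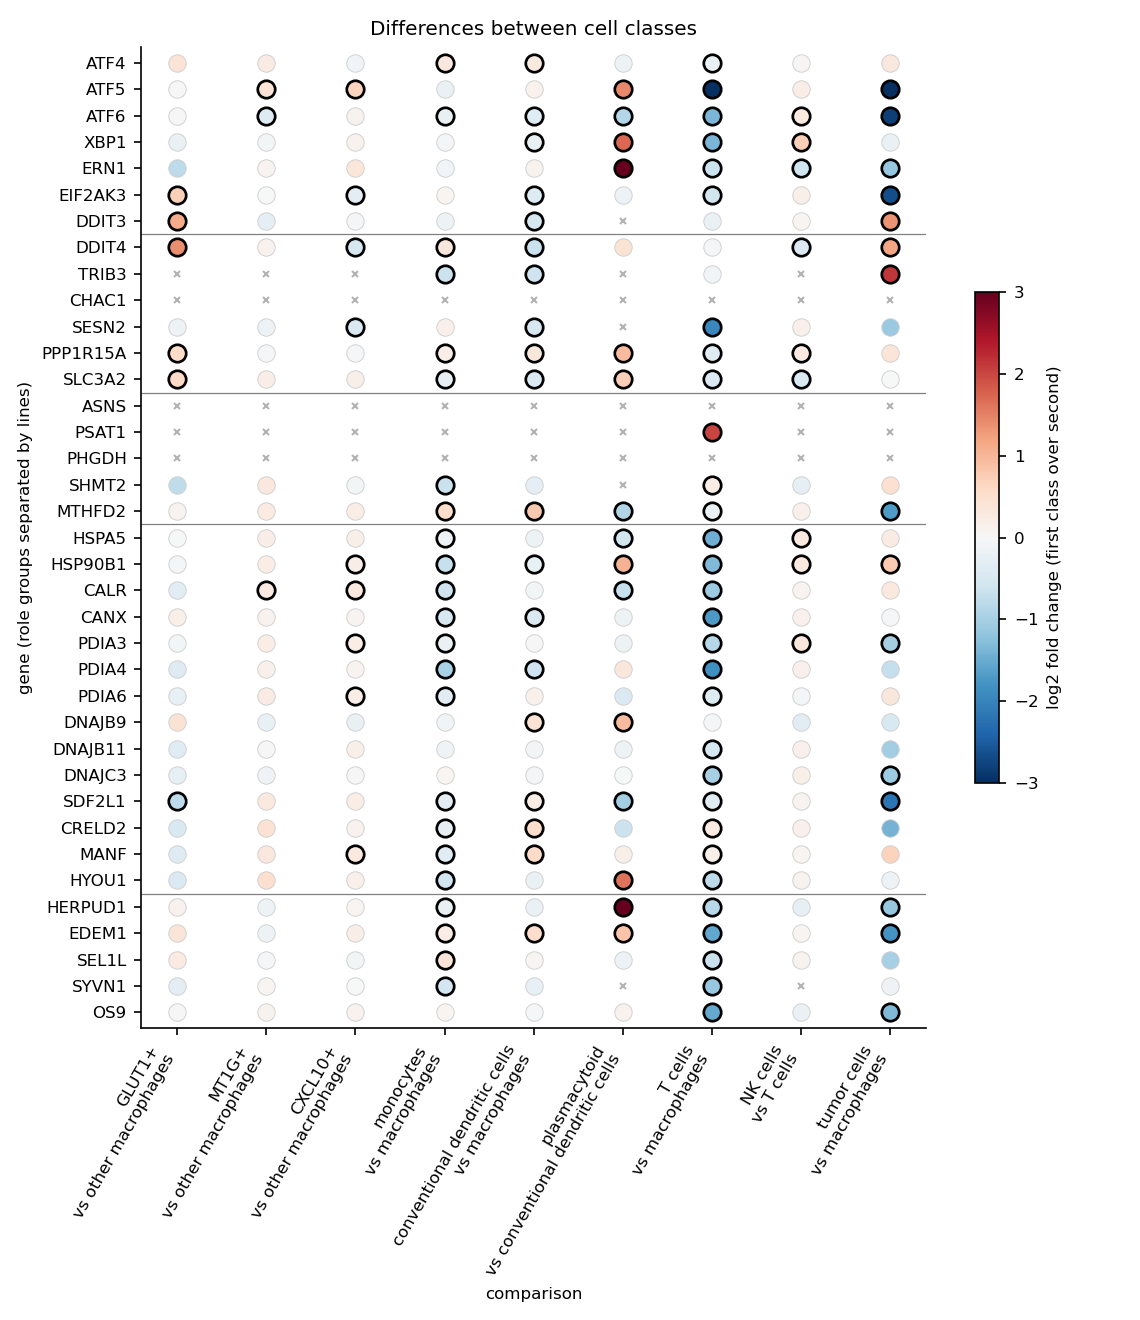
Log2 differences of the 37 stress genes (rows) in the comparisons between cell classes and macrophage states (columns), as color from -3 to 3, with a black outline for an edgeR adjusted p under 0.05 and a cross for genes not tested. T cells are called lower than macrophages in 26 of 34 genes tested, of which ATF4 and MTHFD2 have higher median CPM in T cells, and the 3 macrophage states differ in 3 to 9 genes.

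On the log2 scale, MTHFD2 was higher by 0.80 ± 0.08, MANF by 0.56 ± 0.09, EDEM1 by 0.54 ± 0.11, the ER thiol protein CRELD2 by 0.53 ± 0.14 and ATF4 by 0.30 ± 0.09 in conventional dendritic cells. DDIT4 at -0.66 ± 0.13, PDIA4 at -0.63 ± 0.08, TRIB3 at -0.61 ± 0.22, DDIT3 at -0.51 ± 0.20 and XBP1 at -0.21 ± 0.08 were lower, and 4 of the 5 targets and regulators tested were lower. HSPA5 at -0.14 ± 0.08 did not pass. Further integrated stress genes were higher in 11 and lower in 5 of 27, with NUPR1 at -5.66 ± 0.43, WARS1 at 1.26 ± 0.12 and SLC7A11 at 1.19 ± 0.25. Further unfolded protein genes were higher in 12 and lower in 11 of 36, with CREB3L2 at -1.11 ± 0.10, MBTPS2 at -0.91 ± 0.24 and ERO1A at -0.89 ± 0.10. The 6 macrophage markers summed to 1046 to 4033 CPM in this class, against 5120.3 to 7146 in macrophages, and 4 of 9 hypoxia genes were lower and 1 higher, led by ADM at -1.94 ± 0.26 and BNIP3 at -1.40 ± 0.18. Of 9 dissociation and immediate early genes 5 were lower, led by EGR1 at -1.23 ± 0.18, and 3 higher. The part of these genes and markers in the differences was not tested. DDIT3 lost its call without any of 8 mice, XBP1 without any of 7, TRIB3 without maraviroc mouse 1 of reaction 2 and SDF2L1 without untreated mouse 4 of reaction 1 (edgeR adjusted p = 0.050 to 0.12), and reaction 1 alone gave 6 calls in place of 19.

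T cells had lower levels than macrophages across most of the set. ATF5 stood at 11.2 to 25.7 CPM with a median of 15.5 in T cells, against 117 to 263 with a median of 150 in macrophages. HSPA5 stood at 110 to 166 with a median of 137, against 231 to 439 with a median of 335. SESN2 stood at 7.16 to 17.97 with a median of 13.4, against 28.7 to 64.6 with a median of 47.2. Of the 34 genes tested, 12 were lower without overlap in this way, where 16.3% of all genes tested were.

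Of 34 genes tested, 26 were lower and 4 higher in T cells, where 38.3% of all 12205 genes were lower and 42.8% higher. The median over the tested genes of the set was -0.66 on the log2 scale, against 0.06 over all genes. The largest differences were ATF5 at -3.52 ± 0.13, SESN2 at -1.96 ± 0.10, PDIA4 at -1.84 ± 0.08, CANX at -1.72 ± 0.07, EDEM1 at -1.57 ± 0.08, the lectin OS9 at -1.54 ± 0.07 and HSPA5 at -1.47 ± 0.08, and XBP1 was at -1.38 ± 0.10. All 5 degradation genes and 11 of 14 chaperones were lower. PSAT1, which makes serine, was higher, at 1.17 to 11.2 CPM against 0 to 4.40 and a log2 difference of 2.03 ± 0.26. It passed the low-count filter only where T cells entered, so this call is tied to its level in T cells. SHMT2 at 0.21 ± 0.08, CRELD2 at 0.27 ± 0.10 and MANF at 0.18 ± 0.07 were called higher by edgeR but not by DESeq2 (adjusted p = 0.11, 0.076 and 0.20), and leaving out 1 mouse removed their calls for 2, 4 and 5 mice (edgeR adjusted p = 0.053 to 0.16). ATF4 at -0.19 ± 0.05 and MTHFD2 at -0.19 ± 0.06 were called lower, although the CPM were higher in T cells in 8 and 7 of 14 mice, so their direction depends on the scaling. DDIT3 at -0.19 ± 0.18 did not pass.

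Further integrated stress genes were lower in T cells in 16 and higher in 7 of 27, with NUPR1 at -4.66 ± 0.33, ATF3 at -3.64 ± 0.15 and CEBPB at -2.19 ± 0.15. Further unfolded protein genes were lower in 24 and higher in 8 of 38, with KDELR3 at 1.83 ± 0.28, P4HB at -1.71 ± 0.08 and SSR1 at -1.46 ± 0.05. KDELR3 passed the low-count filter for treatment in T cells but not in macrophages, so its call is tied to its level in T cells. Of 9 dissociation and immediate early genes 8 were lower as well, and 8 of 9 hypoxia genes, and their part in the stress gene differences was not tested.

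NK cells were compared with T cells of the same mice. XBP1 stood at 58.9 to 104 CPM with a median of 74.4 in NK cells, against 30.8 to 77.3 with a median of 45.0 in T cells, and was higher in 13 of 14 mice. Of 31 genes tested, 6 were higher and 3 lower, where 11.2% of all 8267 genes were higher and 10.6% lower. XBP1 differed by 0.75 ± 0.12 on the log2 scale (edgeR adjusted p = 6.4e-05), PDIA3 by 0.33 ± 0.07, HSPA5 by 0.30 ± 0.08, HSP90B1 by 0.29 ± 0.07, ATF6 by 0.28 ± 0.08 and PPP1R15A by 0.27 ± 0.08. ERN1 was lower, at -0.60 ± 0.18, as were SLC3A2 at -0.47 ± 0.09 and DDIT4 at -0.43 ± 0.10. The sensor ERN1 and its substrate XBP1 thus differed in opposite directions. ATF4 at 0.04 ± 0.09 and DDIT3 at 0.07 ± 0.25 did not pass. Of the further genes, WARS1 at 0.60 ± 0.12, GARS1 at -0.55 ± 0.13 and CEBPB at 0.40 ± 0.13 led the 2 higher and 2 lower of 24 integrated stress genes, and CREB3L2 at -0.45 ± 0.14 and UBE2J1 at 0.38 ± 0.11 were the only calls among 34 unfolded protein genes. Of 8 dissociation and immediate early genes tested 3 were higher and 2 lower in NK cells, led by IER2 at 0.61 ± 0.09 and FOSB at 0.59 ± 0.13, and of 6 hypoxia genes LDHA was lower, at -0.19 ± 0.06. Their part in the stress gene differences was not tested. ERN1 lost its call without maraviroc mouse 4 of reaction 2 and PPP1R15A without untreated mouse 1 of either reaction (edgeR adjusted p = 0.057 to 0.061), and in reaction 1 alone XBP1 was the single call.

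Cells with tumor markers passed a sort for human CD45+ cells that should remove them. They carried all 7 markers at a sum of 2207 to 5601 CPM and the leukocyte gene PTPRC at 12.3 to 130, and numbered 10 to 18 cells in each of 5 mice, 4 of them of reaction 1. The gate asked for at least 4 of these markers and at most 1 PTPRC UMI per cell. The levels of these genes therefore follow from the gate and do not test what the cells are. HSP90B1 stood at 722, 1222, 998, 911 and 952 CPM in untreated mice 3 and 4 and maraviroc mice 2 and 3 of reaction 1 and maraviroc mouse 4 of reaction 2, against 520, 448, 465, 498 and 463 in their macrophages. ATF5 stood at 13.6, 0, 13.0, 0 and 16.3, from 6 UMIs in all, against 158, 184, 136, 133 and 211. Both genes separated the classes without overlap, in opposite directions, where 14.4% of all genes tested did so as higher and 21.2% as lower.

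Of 33 genes tested against macrophages, 4 were higher and 11 lower, where 15% of all 9945 genes were higher and 24.9% lower. All genes together had a median log2 difference of -0.25 under edgeR scaling and -0.37 under DESeq2, and the genes tested in the set -0.48 under edgeR. Lower were ATF5 at -4.29 ± 0.50, ATF6 at -2.83 ± 0.38, EIF2AK3 at -2.66 ± 0.47, SDF2L1 at -2.19 ± 0.45, EDEM1 at -1.78 ± 0.44 and MTHFD2 at -1.70 ± 0.46. HSP90B1 was higher by 0.79 ± 0.24. ATF4 at 0.31 ± 0.34, XBP1 at -0.19 ± 0.35 and HSPA5 at 0.24 ± 0.29 did not pass.

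TRIB3 at 2.14 ± 0.58, DDIT3 at 1.35 ± 0.50 and DDIT4 at 1.19 ± 0.33 were also called higher in cells with tumor markers. In maraviroc mouse 4 of reaction 2, TRIB3 reached 118, DDIT3 110 and DDIT4 809 CPM, whereas the 4 mice of reaction 1 stood at 0 to 38.9, 0 to 51.9 and 117 to 408. Without that mouse none of the 3 was called (edgeR adjusted p = 0.36, 0.51 and 0.099). DDIT3 was also lost without maraviroc mouse 2 of reaction 1, HERPUD1 without maraviroc mouse 3 of reaction 1 and ERN1 without any of 4 mice (edgeR adjusted p = 0.052 to 0.12). Further integrated stress genes were higher in 5 and lower in 3 of 28, with PYCR1 at 5.20 ± 0.67, NUPR1 at -3.08 ± 0.74 and SLC7A11 at 2.41 ± 0.55. PYCR1 passed the low-count filter only where cells with tumor markers entered, so its call is tied to its level in them. Unfolded protein genes were higher in 9 and lower in 7 of 38, with WFS1 at 3.00 ± 0.57, ERO1B at -2.25 ± 0.65 and CREB3L2 at -1.80 ± 0.56. Of 9 hypoxia genes 5 were higher and none lower, and 5 of 9 dissociation genes were higher and 3 lower, and their part was not tested.

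Maraviroc was compared with no treatment within each cell class, with the reaction as a covariate. In macrophages, none of the set was called. ATF4 stood at 55.9 to 74.3 CPM with a median of 60.03 in 7 treated mice and at 55.2 to 78.1 with a median of 61.3 in 7 untreated mice. XBP1 stood at 92.6 to 112 with a median of 99.7, against 92.8 to 105 with a median of 96.3. HSPA5 stood at 231 to 396 with a median of 362, against 283 to 439 with a median of 313. For each of these genes the treated and untreated mice overlapped.

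**Figure D5:**
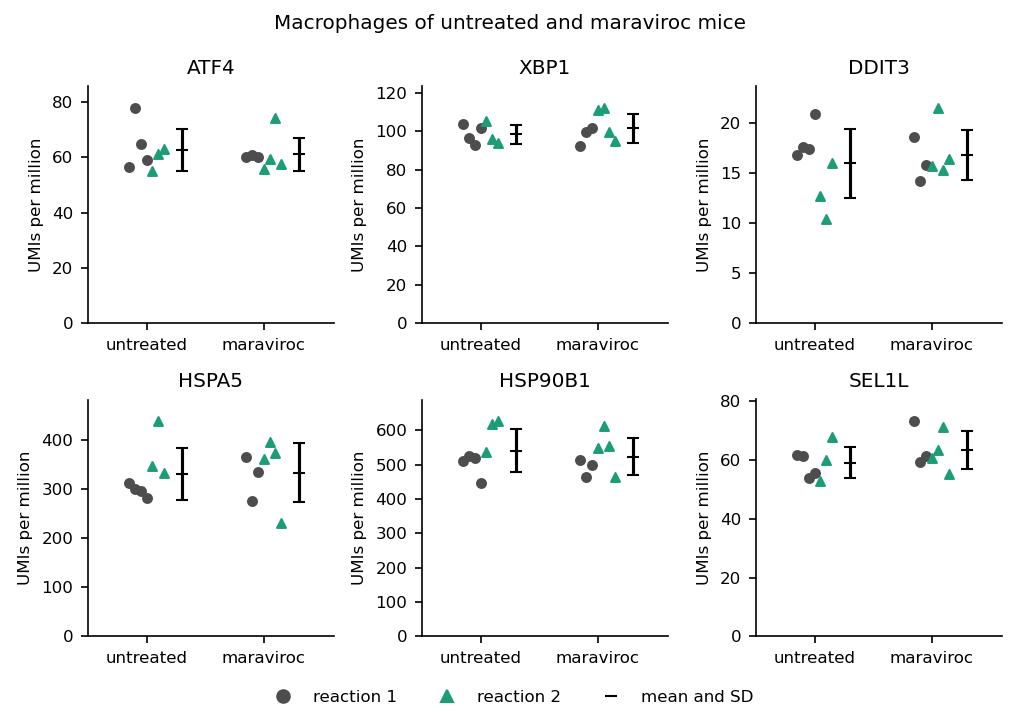
Levels in CPM of 6 stress genes in the macrophages of each mouse, untreated and maraviroc-treated, with circles and triangles for reactions 1 and 2 and bars for mean and SD. The 7 treated mice overlap the 7 untreated mice for every gene shown, for example at 55.9 to 74.3 against 55.2 to 78.1 for ATF4.

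Of 33 genes tested in macrophages, 0 were called by edgeR, as were 0% of all 11908 genes, and 0 had an unadjusted p under 0.05, where 3.68% of all genes did. DESeq2 gave 0 and 0 for the set. The log2 difference was -0.04 ± 0.09 for ATF4, 0.04 ± 0.06 for XBP1, 0.14 ± 0.14 for DDIT3 and -0.00 ± 0.11 for HSPA5. Of the 33 genes, 8 had a positive and 25 a negative difference, with a median of -0.04 where the median of all genes was -0.0003. A shift of the set as a whole was not tested. SEL1L, the scaffold of the degradation ligase, ranked first by the test, at 0.10 ± 0.08 (edgeR adjusted p = 0.9998), followed by CANX at -0.07 ± 0.06 and HSP90B1 at -0.07 ± 0.07. In simulated macrophage sums where 200 genes differed by a log2 value of 1, 99.5% were found, so differences of that size would mostly have been seen, while smaller ones may be missed. The treatment effect was also compared between reactions. None of 33 genes differed by edgeR, and 5 had an unadjusted p under 0.05, where 6.52% of all genes did. Of these DDIT3 had the lowest, with a treatment difference of -0.18 in reaction 1 and 0.46 in reaction 2 (difference 0.64 ± 0.25, edgeR adjusted p = 0.74).

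The other classes gave the same count of 0 by edgeR and 0 by DESeq2, with 0% of all genes called by edgeR in HMOX1+ macrophages, monocytes, conventional dendritic cells, T cells and NK cells. Positive and negative differences of the set numbered 10 and 23 in HMOX1+ macrophages, 17 and 15 in monocytes and 8 and 22 in conventional dendritic cells. They numbered 15 and 19 in T cells and 12 and 13 in NK cells. In HMOX1+ macrophages, 2 of 33 genes had an unadjusted p under 0.05 in edgeR and 2 in DESeq2, where 3.08% of all genes did in edgeR. They were SEL1L at 0.16 ± 0.08 and ATF6 at 0.28 ± 0.13, and HSP90B1 was next at -0.13 ± 0.07. ATF4 was at -0.05 ± 0.12, XBP1 at 0.11 ± 0.09, DDIT3 at 0.20 ± 0.16 and HSPA5 at -0.02 ± 0.11. In monocytes it was 1 of 32 genes in edgeR and 1 in DESeq2, where 4.23% of all genes did. MANF was at 0.41 ± 0.18, SEL1L at -0.17 ± 0.08 and SESN2 at -0.29 ± 0.16, and ATF4 at -0.02 ± 0.09, XBP1 at 0.08 ± 0.12, DDIT3 at -0.12 ± 0.28 and HSPA5 at 0.09 ± 0.12.

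In conventional dendritic cells it was 3 of 30 genes in edgeR and 2 in DESeq2, where 7.88% of all genes did. ERN1 stood at 42.0 to 116 CPM with a median of 68.0 in treated mice and at 32.6 to 71.5 with a median of 44.9 in untreated mice, a log2 difference of 0.62 ± 0.21 (unadjusted p = 0.0081, edgeR adjusted p = 0.50). PDIA6 was at -0.30 ± 0.12 and SLC3A2 at -0.32 ± 0.14, with ATF4 at -0.01 ± 0.17, XBP1 at -0.27 ± 0.15 and HSPA5 at -0.16 ± 0.14. The treated and untreated mice overlapped for each of them.

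In T cells it was 2 of 34 genes in edgeR and 2 in DESeq2, where 4.58% of all genes did. PPP1R15A stood at 130 to 175 CPM with a median of 153 in treated mice, all above the untreated median of 125, and at 115 to 149 in untreated mice. Its log2 difference was 0.25 ± 0.07 (unadjusted p = 0.0030, edgeR adjusted p = 0.97). ATF6 was at -0.30 ± 0.10 and DNAJB9 at 0.33 ± 0.17, with ATF4 at 0.01 ± 0.07, XBP1 at -0.06 ± 0.17, DDIT3 at -0.51 ± 0.31 and HSPA5 at -0.10 ± 0.08. DDIT3 was highest in untreated mouse 2 of reaction 1, at 59.3 CPM, and without that mouse its log2 difference was -0.27. In NK cells 0 of 25 genes had an unadjusted p under 0.05 in edgeR or in DESeq2, where 2.79% of all genes did in edgeR. EIF2AK3 at 0.33 ± 0.18, HERPUD1 at -0.33 ± 0.21 and ATF6 at -0.23 ± 0.15 had the lowest p, and ATF4 was at -0.12 ± 0.18, XBP1 at 0.12 ± 0.16 and HSPA5 at -0.17 ± 0.14.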

How the data were processed

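The authors sequenced Chromium 3' v3.1 libraries of human CD45+ cells and hashtag antibodies, and deposited unnormalized UMI counts per gene and hashtag from Cell Ranger 9.0.1 on GRCh38. From these counts, singlets were called with HTODemux in Seurat 5.3.0 (R 4.3.3) at quantile 0.99, and barcodes with more than 600 and at most 6000 genes and under 12.5% mitochondrial UMIs were kept. No doublet caller was run, and cells passing the gates of 2 lineages were left out (7.80% of kept cells in reaction 1 and 1.15% in reaction 2), as were cells of no class (24.8% and 9.30%). The marker thresholds were set after marker UMIs and cell numbers, but not stress gene levels by class, had been seen, so class sizes are not compared.

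UMIs were summed per class and mouse and tested with edgeR 4.0.16 (TMM, filterByExpr, quasi-likelihood test, Benjamini-Hochberg over all genes), with mouse as a block between classes and reaction as a covariate for treatment. The low-count filter sees the groups, so genes tested are those it kept. The named genes were ATF4, XBP1, DDIT3 and HSPA5 everywhere, the 8 largest differences with an adjusted p under 0.05 or otherwise the 3 lowest unadjusted p, and the 3 largest per further list. The genes, lists and comparisons were chosen with earlier results of these data known. In simulated sums where 200 genes differed by a log2 value of 1, 99.5% were found for macrophages by treatment and 67% for GLUT1+ macrophages, with 10 false calls each. Alternatives covered DESeq2 1.42.0, the filters, gates, hashtag quantile, block, each reaction, each mouse left out, and cells above 5000 UMIs, the last chosen after seeing the data. The ± values are standard errors of a log2 difference, which rest on the variation between mice but do not describe their spread. Mice of a reaction share a library. Sequences of the genes were not analysed here.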

Additional observations from a re-analysis of the deposited data

Results flagged for a closer look

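Levels of the 37 genes in macrophages were searched for mice far from the others of their treatment, with Dixon's test in the 7 untreated and the 7 maraviroc-treated mice. Of 74 groups, 9 held such a mouse, where chance gives about 1 in 20. The groups share the same mice and are not independent, so this count is not read as an excess. All values are CPM of macrophage UMIs.

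Untreated mouse 2 of reaction 1 was the highest of its group for 3 genes. ATF4 reached 78.1 in it, with the next mouse at 64.8. ERN1 reached 102, with the next at 68.9, and the sparse PHGDH reached 2.94, with the next at 1.31.

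Maraviroc mouse 3 of reaction 2, which had the fewest macrophages (93), was likewise the highest for 3 genes of the ATF4 pathway. ATF4 stood at 74.3 in it, with the next at 60.9. MTHFD2 stood at 119.5, with the next at 85.3, and TRIB3 at 11.5, with the next at 8.77.

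In the 3 remaining groups, HSPA5 reached 439 in untreated mouse 2 of reaction 2, with the next at 348. The sparse CHAC1 reached 0.807 in maraviroc mouse 1 of reaction 1, with the next at 0.259. DNAJB11 was lowest at 55.1 in maraviroc mouse 4 of reaction 2, with the next at 63.6.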

How the results depend on the processing

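Of the 129 calls of the set over the class comparisons, 129 kept their direction under every alternative and every mouse left out, 66 stayed called under every alternative, and 100 with any 1 mouse left out. No result reversed under these alternatives, but in T cells against macrophages ATF4 and MTHFD2, both called lower at -0.19, had higher median CPM in T cells (63.6 against 60.2 and 87.1 against 83.2). No gene of the set was called for treatment under any alternative run. The number called moved by over 1.5 times as follows. For GLUT1+ macrophages it was 6, and 1 in reaction 1 alone, 2 in reaction 2 alone and 0 with gates raised by 1 UMI, which left 2 mice. For MT1G+ macrophages it was 3, and 5 with DESeq2, 0 under 7.5% mitochondrial UMIs, 1 at hashtag quantile 0.95 and 0 in either reaction alone, with 0 to 4 when a mouse was left out. For CXCL10+ macrophages it was 9, and 3 in either reaction alone. Reaction 1 alone gave 13 in place of 23 for monocytes, 6 in place of 19 for conventional dendritic cells and 1 in place of 9 for NK cells. A single reaction holds fewer mice, and otherwise the cause was not tested. Plasmacytoid cells in reaction 1 alone, and cells with tumor markers in reaction 2 alone or with gates raised, could not be fitted. Treatment with 7 mice a group, and classes of 10 to 26 cells a mouse, limit what could be seen.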
